A study of Arabidopsis thaliana with 15 samples.

Results

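Stele cells of Arabidopsis thaliana roots that had been in brassinolide (BL) for 2 or 4 h were compared with stele cells that had been in it for 0.5 or 1 h. The 4 late arrays, 2 at 2 h and 2 at 4 h, were set against the 4 early arrays, 2 at 0.5 h and 2 at 1 h, by the time on their labels. These are 8 of the 15 arrays of the series. Primary roots of 6-day-old plants carrying pWOL:GFP were moved to half-strength MS medium with 10 nM BL, their cell walls were digested for about 2 h, and GFP-positive protoplasts were sorted. Their total RNA was amplified in 2 cycles and hybridised to Affymetrix ATH1 arrays, 1 array per sample, lettered A and B within each time. All 8 samples therefore share the line, the BL dose, the digestion, the sort and the amplification. GFP here is driven by the promoter of WOL, a cytokinin receptor gene active in the stele, so the sort takes whatever cells have that promoter active. The untreated pWOL:GFP arrays enter no comparison; they add only to the estimate of spread where all 15 arrays were fitted together. Cells sorted with pAtHB15:YFP, labelled provascular, after 2 h of BL (2 arrays) or without BL (3 arrays), enter at one point only and are called ATHB15. The labels name no mock transfer for each time, so time in BL and time since transfer cannot be told apart. Nothing says that A and B are separate cultures, so the spread behind each p-value may be technical. The material is bulk RNA, so fewer cells of a type and less RNA per cell cannot be told apart.

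BL is the most active of the brassinosteroids, plant steroid hormones that bind the receptor kinase BRI1 at the cell surface. Signalling from BRI1 inactivates the kinase BIN2, which lets the transcription factors BZR1 and BES1 act on genes of cell wall loosening, auxin response and brassinosteroid synthesis itself. In roots, brassinosteroids are known for their roles in cell elongation, in the meristem and in vascular patterning, and the close homologues of BRI1 named BRL1 and BRL3 are expressed in vascular cells.

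No probe set passed an adjusted p of 0.05 between late and early arrays. This is 0 of 22746 probe sets (0.00%; limma's moderated test with Benjamini-Hochberg adjustment), and the smallest adjusted p was 0.169. At an unadjusted p under 0.05, 1107 probe sets passed (4.87%), 492 higher (2.16%) and 615 lower (2.70%) at the late times. With each array centred on its median the split was 651 higher and 489 lower, so which side had more depends on the scaling. That count was 651 without 0.5 h B, 655 without 2 h B, 2927 without 4 h A and 2064 without 4 h B. All 4 late arrays lay above all 4 early arrays for 312 probe sets (1.37%) and below them for 380 (1.67%). Larger differences were more often downward, with 68 probe sets (0.299%) over 1 on the log2 scale and 173 (0.761%) under -1. Of the 50 probe sets with the smallest p, 37 were lower and 13 were higher at the late times, and 12 of those 13 were called absent on every early array. All differences below are between means of log2(signal + 16), late minus early unless said otherwise, and none of the genes named passed the threshold in that comparison. The sets of 15 higher and 15 lower genes below admit only genes whose late and early arrays did not overlap. Their separation was therefore fixed by the choice.

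The arrays themselves differed with time. The share of probe sets called present was 52.7% to 59.1% on the late arrays and 50.9% to 58.4% on the early ones. The ratio of 3′ to 5′ signal of the GAPDH control probes, which grows as RNA is shortened, was 1.91 and 2.85 at 2 h and 3.33 and 3.84 at 4 h, against 1.47 and 1.24 at 0.5 h and 2.23 and 2.04 at 1 h. A second pair of GAPDH probes gave 12.5 to 36.3 on the late arrays and 8.50 to 11.7 on the early arrays, with no overlap. The actin ratio was 24.1 to 48.9 on the late arrays and 17.8 to 24.6 on the early arrays, with overlap. A second actin pair gave 240 and 151 at 2 h and 174 and 164 at 4 h, against 186 and 232 at 0.5 h and 128 and 130 at 1 h. It also overlapped. The UBQ ratio overlapped too, at 3.79 to 5.15 on the late arrays and 2.91 to 6.50 on the early arrays. So did a second UBQ pair, at 7.64 to 10.7 on the late arrays and 6.05 to 10.8 on the early arrays. The 2 arrays at 4 h were also the least alike of the same-time pairs. The correlation across probe sets between 4 h A and 4 h B was 0.898, against a highest same-time value of 0.962, and their median SD was 0.416 on the log2 scale, against 0.196 at 0.5 h. On the first principal component, which held 29.4% of the variance, 4 h A lay at -77.2 and 4 h B at 54.5, the opposite ends.

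**Figure D1:**
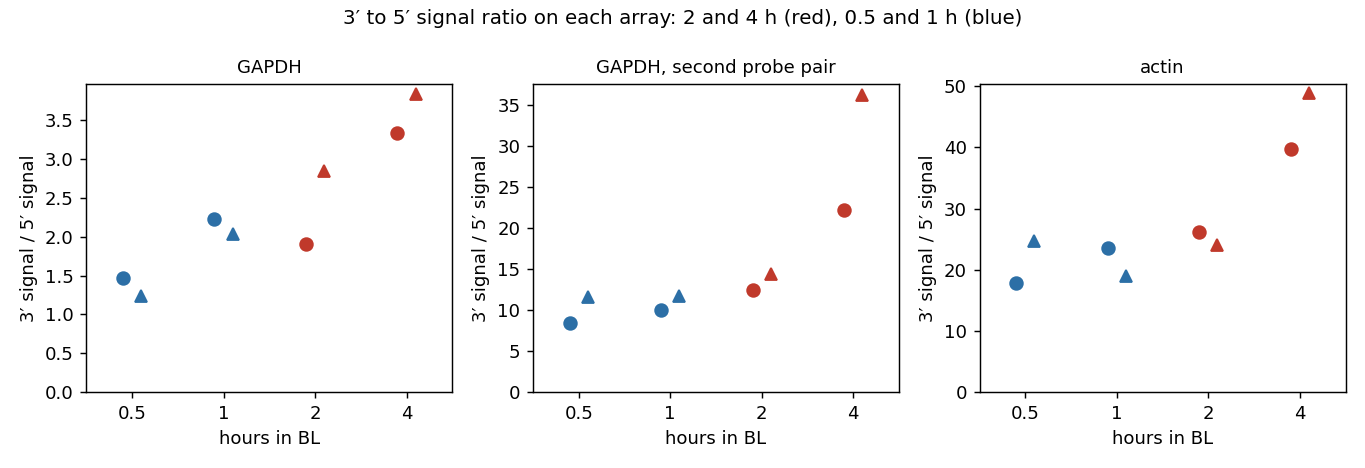
Ratio of 3′ to 5′ control probe signal (vertical axes, no unit) on each array against hours in BL; circles are replicate A, triangles replicate B, late arrays red and early arrays blue. For the second GAPDH pair the 4 late arrays run from 12.5 to 36.3 and the 4 early arrays from 8.50 to 11.7.

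The label of the cells was checked against marker genes. Of 26 stele and vascular genes listed, 2 have a probe set that the array annotation used here assigns to a gene. These are LHW, a bHLH factor of vascular initials, and PHV, a class III HD-ZIP factor of the vascular cylinder, and both were called present on all 8 arrays. LHW had signals of 669 and 895 at 2 h and 461 and 914 at 4 h, against 835 and 799 at 0.5 h and 954 and 926 at 1 h. PHV had 664 and 625 at 2 h and 284 and 669 at 4 h, against 477 and 506 at 0.5 h and 784 and 530 at 1 h. Late and early arrays overlapped for both genes, whose differences were -0.30 for LHW and -0.08 for PHV. Of the 3 cortex markers, all measured, JKD and AT1G09750 were called absent on every array and AT1G62500 was called present on 1 early array. Their summed signal was 21.3 to 73.8 on the late arrays and 64 to 73.7 on the early arrays.

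Epidermal transcripts were present. EXPA7 and EXPA18, expansins of growing root hairs, are the 2 measured of 10 epidermis and root hair genes. EXPA7 had 492 and 229 at 2 h and 264 and 127 at 4 h, against 525 and 587 at 0.5 h and 597 and 142 at 1 h. EXPA18 had 502 and 282 at 2 h and 383 and 138 at 4 h, against 681 and 658 at 0.5 h and 502 and 287 at 1 h. The summed signal of this pair was 265 to 994 on the late arrays and 429 to 1245 on the early arrays. Both genes had lower late means with overlapping arrays (-0.67 and -0.74). The part of such cells in the differences below was not tested. None of the 12 endodermis or 4 root cap genes listed has a named probe set here.

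The named genes with the largest differences were lower at the late times, and 3 of the 4 with the smallest p lie next to each other in the genome. AT1G52050, AT1G52060 and AT1G52070 encode proteins of the jacalin-related lectin family, which bind sugars. They are consecutive protein-coding genes on chromosome 1 in the RefSeq annotation, followed by AR791. AT1G52060 had signals of 86.5 and 109 at 2 h and 192 and 118 at 4 h, against 305 and 457 at 0.5 h and 987 and 1170 at 1 h. Every late array was below every early array. The difference was -2.25 ± 0.26 (SE, n = 4 each, adjusted p = 0.169 in limma) with the smallest unadjusted p of all probe sets, and it was -2.40 to -2.09 with any 1 array left out.

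Its neighbours ran the same course. AT1G52070 had 28.3 and 45.0 at 2 h, both called absent, and 178 and 51.3 at 4 h, against 211 and 178 at 0.5 h and 620 and 544 at 1 h. AT1G52050 had 51.5 and 61.4 at 2 h and 141 and 72.4 at 4 h, against 187 and 189 at 0.5 h and 401 and 807 at 1 h. Late and early arrays did not overlap for either gene, although 4 h A, at 177.5, was just under 0.5 h B, at 177.6, for AT1G52070. The differences were -2.20 ± 0.34 for AT1G52070 and -1.91 ± 0.30 for AT1G52050 (adjusted p = 0.348 for both in limma). For all 3 genes the mean at 1 h was the highest of the 4 times and the mean at 2 h the lowest. Within the early arrays, 1 h exceeded 0.5 h by 1.49, 1.51 and 1.52 on the log2 scale for AT1G52060, AT1G52070 and AT1G52050, so the early group itself was not flat. Genes of 1 family can cross-hybridise, and how far these 3 probe sets measure separate transcripts was not tested.

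JAL34, another jacalin-related lectin, had a different course within the early times. Its signals were 1264 and 1075 at 2 h and 1261 and 721 at 4 h, against 2491 and 3060.2 at 0.5 h and 2401 and 2252 at 1 h. No late array reached the lowest early one, and the difference was -1.25 ± 0.25 (adjusted p = 0.796 in limma). NAI2, a protein that makes up endoplasmic reticulum bodies, the spindle-shaped stores of defence enzymes in Brassicaceae, had 260.1 and 156 at 2 h and 138 and 151 at 4 h, against 374 and 444 at 0.5 h and 363 and 405 at 1 h. Its arrays did not overlap, and the difference was -1.14 ± 0.24 (adjusted p = 0.863 in limma). AT3G20370, of the TRAF-like family, had 184 and 178 at 2 h and 357 and 177 at 4 h, against 777 and 599 at 0.5 h and 690.4 and 446 at 1 h. It too had no overlap, with a difference of -1.46 ± 0.29 (adjusted p = 0.777 in limma).

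**Figure D2:**
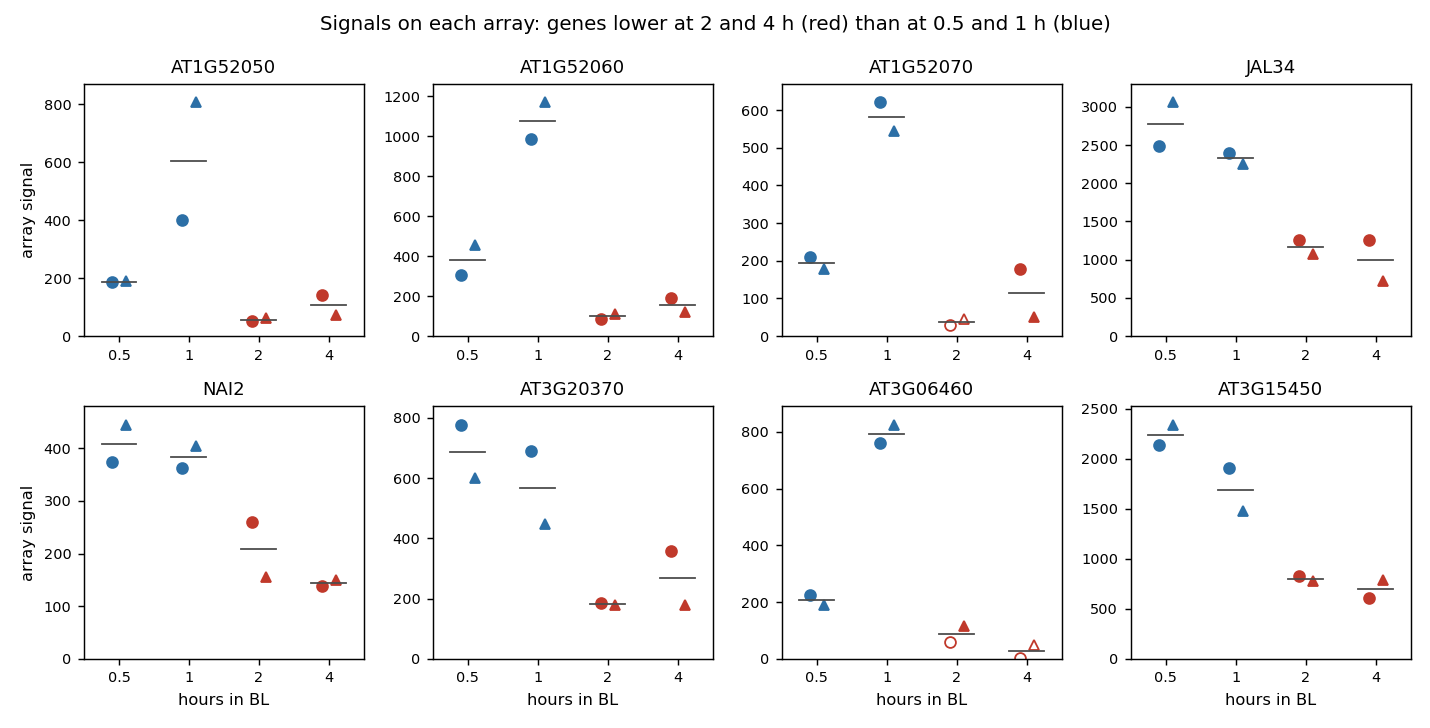
Array signal (vertical axes, linear from 0) against hours in BL for 8 genes that were lower at the late times; circles are replicate A, triangles replicate B, open symbols are signals not called present, and bars are the mean of the 2 arrays. For each gene the 4 late arrays (red) lie below the 4 early arrays (blue), and for the AT1G52050 to AT1G52070 genes and AT3G06460 the 1 h arrays are the highest.

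These genes led to a look at the families they belong to, whose lists were therefore chosen after their values were seen. Of 38 jacalin-related lectins listed, 19 had a named probe set, of which 9 were called absent on all 8 arrays. Lower late means with an unadjusted p under 0.05 were found for 8 of the 19, against 2.70% of all probe sets. On 6 of them all late arrays were below all early arrays, against 1.67% of all probe sets, and 5 of the 6 were present on at least 1 array. AT1G52050, AT1G52060, AT1G52070 and JAL34, which prompted the list, count among both the 8 and the 6. Both shares were therefore fixed in part by the choice and are only a description. The median of the 19 was -0.21, against 0.00 for all probe sets. Their summed signal was 1513 to 2310 on the late arrays and 3973 to 5612 on the early arrays, without overlap, and JAL34 was the brightest member on each array. AT5G35940 had 50.3 and 59.4 at 2 h and 22.5 and 59.8 at 4 h, of which only the first was called present, against 125 and 168 at 0.5 h and 85.1 and 85.1 at 1 h. JAL33 had overlapping arrays and a difference of -0.76, which was 0.30 with the GAPDH ratio as a covariate.

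Of 10 endoplasmic reticulum body genes, 3 were measured. PYK10, the beta-glucosidase that is the main content of these bodies in roots, had 3726 and 1890.3 at 2 h and 4213 and 1696 at 4 h, against 4491 and 5104 at 0.5 h and 4186 and 4965 at 1 h. The late arrays split by replicate letter, with the A arrays close to the early level, and the groups overlapped. The difference of PYK10 was -0.81, but 0.72 in a fit that held the GAPDH ratio and 0.32 in one that held the second GAPDH pair. NAI1, the transcription factor of the bodies, was called present on 1 array only, 4 h A at 263. All 4 measured members of 7 TRAF-like genes had lower late means, with a median of -1.18, against 11302 of 22746 probe sets with lower late means. AT3G20370, which prompted this list, is 1 of the 4. AT5G26260 had the lowest difference of the 4, -1.78, but -0.057 in 1 of the alternative fits. AT5G26280 had no overlap, with 112 and 93.4 at 2 h and 161 and 127 at 4 h, against 209 and 186 at 0.5 h and 240.3 and 288 at 1 h. ZW9 overlapped, since 4 h A was at 3257 beside 2131 to 4662 on the early arrays.

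Of the remaining lower genes, AT3G06460 and AT3G15450 had the smallest p. AT3G06460, of the ELO family of enzymes that lengthen fatty acid chains, had 58.7 and 116 at 2 h and 4.20 and 49.9 at 4 h, against 225 and 191 at 0.5 h and 761 and 824 at 1 h. On the late arrays only 2 h B was called present. The difference was -2.82 ± 0.38 (adjusted p = 0.218 in limma). AT3G15450, an aluminium-induced-like protein that is known to be high in sugar-starved plants, had 828 and 773 at 2 h and 610.4 and 790.4 at 4 h, against 2133 and 2336 at 0.5 h and 1905 and 1476 at 1 h. All its signals were called present, the late arrays lay well apart from the early ones, and the difference was -1.36 ± 0.23 (adjusted p = 0.359 in limma).

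The 7 other genes of the lower set had differences between -2.03 and -0.95 and adjusted p-values of 0.743 to 0.970 in limma. AT3G49190, of a wax ester synthase family, had 36.9 and 157 at 2 h and 60.1 and 91.7 at 4 h, against 223 and 158 at 0.5 h and 551 and 864 at 1 h. AT5G60530, a late embryogenesis abundant family member, had 73.8 and 143 at 2 h and 145 and 77.0 at 4 h, against 157 and 194 at 0.5 h and 525 and 637 at 1 h. AT2G43610, a chitinase family member, had 117 and 102 at 2 h and 102 and 135 at 4 h, against 183 and 146 at 0.5 h and 369 and 328 at 1 h. In these 3 genes, as in the lectin cluster, both 1 h arrays were above all others. AT3G10720, of the pectin methylesterase family, differed by -1.38, and AT2G39980, an acyltransferase family member, by -1.72, which became 0.05 with the GAPDH ratio as a covariate and -0.12 with the second GAPDH pair. AT2G39210, a transporter of the major facilitator superfamily, differed by -1.22 and was called present on only 1 of the 4 late arrays. AT5G24490 differed by -0.95.

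Across the 15 genes of the lower set, the highest of the 4 time means was at 1 h for 9 genes and at 0.5 h for 6. The lowest was at 2 h for 7 and at 4 h for 8. In 7 of the 15 the mean at 1 h exceeded that at 0.5 h by over 1 on the log2 scale. Between 1 h and 0.5 h, 0 of 22746 probe sets passed the adjusted threshold (0.00%; limma), and 684 had an unadjusted p under 0.05 (3.01%). These 15 genes were picked by their p among genes without overlap, so their separation was fixed by the choice and is only a description.

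The 15 genes of the higher set had smaller differences, 0.61 to 1.10, and an adjusted p of 0.970 in limma for each. All 15 were called present on the 4 late arrays and lay above the early arrays there, as the rule that picked them required. The highest time mean was at 4 h for 13 of them and at 2 h for 2, and the lowest was at 0.5 h for 9 and at 1 h for 6. AT5G24460 had 174 and 228 at 2 h and 301 and 243 at 4 h, against 144 and 148 at 0.5 h and 84.6 and 119 at 1 h. Its difference was 0.85 ± 0.23, the smallest p of the set. AT3G52220 was the brightest, with 1407 and 1760.2 at 2 h and 1793 and 2183 at 4 h, against 1087 and 1226 at 0.5 h and 894 and 1050.3 at 1 h.

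EXLA2 was the single cell wall gene in the higher set. It is an expansin-like protein, of a family related to the expansins that loosen cell walls. Its signals were 955 and 1084 at 2 h and 657 and 1336 at 4 h, against 564 and 436 at 0.5 h and 578 and 594 at 1 h. The groups did not overlap, 4 h A lay nearest to the early arrays, and the difference was 0.84 ± 0.28, or 0.17 with the GAPDH ratio as a covariate and 0.16 with the second GAPDH pair. UBC18, a ubiquitin-conjugating enzyme, had 153 and 224 at 2 h and 235 and 276 at 4 h, against 138 and 105 at 0.5 h and 138 and 89.7 at 1 h. Its difference of 0.82 became -0.02 with the GAPDH ratio as a covariate and 0.84 with the second GAPDH pair. AT1G36390, of the GrpE co-chaperone family, had 103 and 249.8 at 2 h and 127 and 370 at 4 h, against 74.8 and 71.2 at 0.5 h and 93.8 and 79.4 at 1 h. Its B arrays were well above its A arrays at both late times, and its difference of 1.10 became -0.58 with the GAPDH ratio and -0.24 with the second GAPDH pair.

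Others in the higher set were AT2G36200, a kinesin family motor protein (0.71), AT1G11410, a receptor-like kinase with an S-locus lectin domain (0.82), AT1G55690, of the Sec14-like lipid transfer family (0.66), and AT1G55960, of a START-like lipid binding family (0.61). AT2G36200 had 337 and 438 at 2 h and 362 and 596 at 4 h, against 290 and 259 at 0.5 h and 229 and 232 at 1 h, and its difference was 0.06 with the GAPDH ratio and 0.14 with the second pair. AT5G07960 had 456 and 619 at 2 h and 722 and 932 at 4 h, against 372 and 394 at 0.5 h and 422 and 369 at 1 h. For AT5G07960 the early arrays lay close together and the 4 h arrays were the highest. AT2G23910 (0.79), AT1G19370 (0.82), AT3G05570 (0.72), AT1G30070 (0.87) and AT5G66815 (0.69) complete the set.

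**Figure D3:**
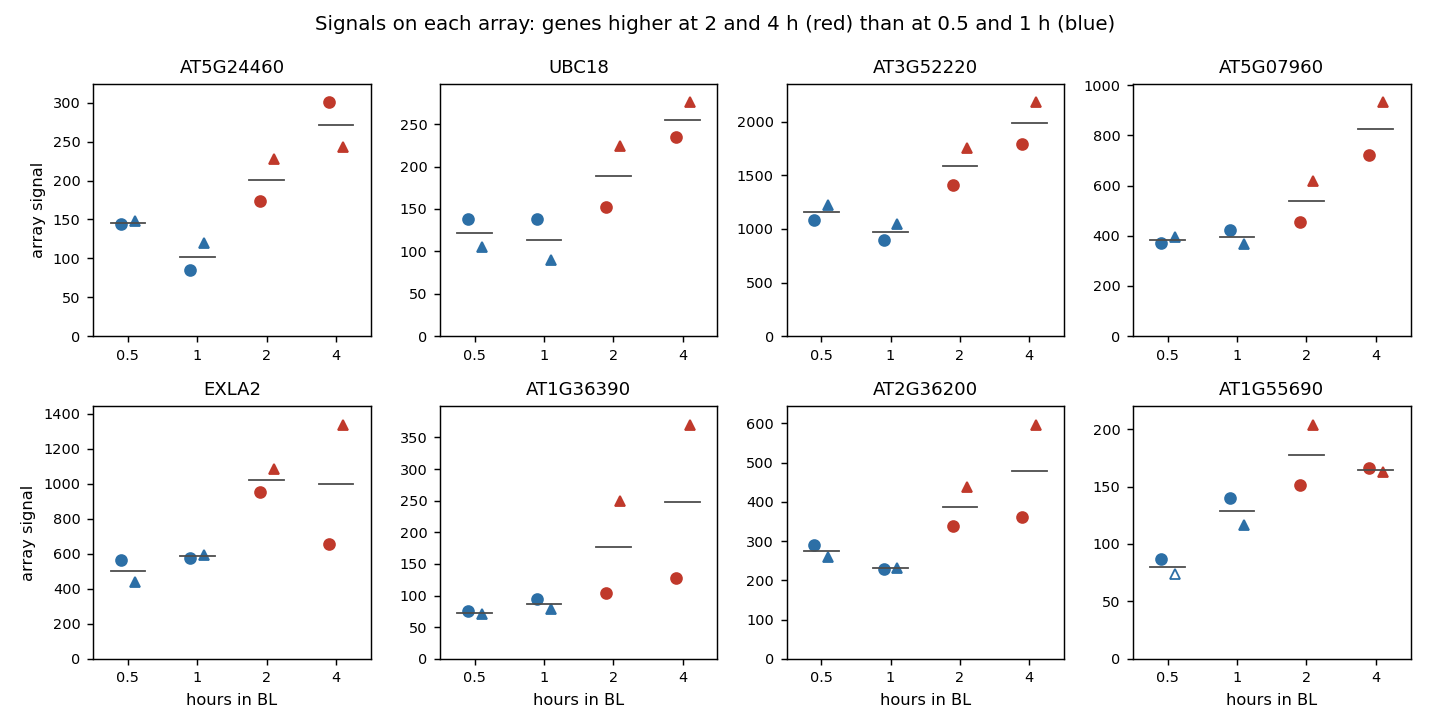
Array signal (vertical axes, linear from 0) against hours in BL for 8 genes that were higher at the late times, drawn as in the plot of the lower genes. For each gene the 4 late arrays (red) lie above the 4 early arrays (blue), and AT1G36390 shows the gap between replicate letters at 2 and 4 h.

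The GAPDH ratio moved with the comparison, and its part in the result was not tested beyond fits that hold it as a covariate. In such a fit 0 probe sets passed the adjusted threshold and 468 had an unadjusted p under 0.05, against 1107 without it. Of the genes named, 14 of the 15 lower and 13 of the 15 higher kept their direction. With the second pair of GAPDH probes as the covariate, 15 of 15 and 14 of 15 did, and 1744 probe sets had an unadjusted p under 0.05. The difference of AT1G52060 was -2.02 with the first pair and -2.16 with the second, AT3G15450 at -1.42 and -1.60, and JAL34 at -0.65 and -0.69. Of its neighbours, AT1G52070 was at -2.26 and -0.93 and AT1G52050 at -1.59 and -1.55. NAI2 was at -0.38 and -1.23, and AT3G20370 at -1.38 and -0.35. The first pair moved 11 of the 30 genes by over 1.5-fold and the second pair 12. Besides those given above or with their gene, the first pair put AT3G10720 at -0.67, and both pairs moved AT3G06460, to -4.27 and -4.30, AT3G49190, to -3.91 and -2.77, and AT2G39210, to -0.26 and -0.37. The second pair put AT1G11410 at 1.68, AT1G30070 at 1.88, AT5G66815 at 1.44 and AT1G19370 at 0.23.

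The late arrays were also set against the early ones 1 time at a time, with the early arrays shared by both comparisons. The fit holds 1 spread per probe set for all 4 times, so the spread of the 4 h arrays also enters the p-values at 2 h. At 2 h, 0 probe sets passed the adjusted threshold (0.00%; limma), the smallest adjusted p was 0.504, and 678 had an unadjusted p under 0.05 (2.98%), 194 higher (0.853%) and 484 lower (2.13%). Median centring gave 333 higher and 334 lower at 2 h, and quantile normalisation 309 and 381, so the lean to lower at 2 h rests on the scaling used. Without 0.5 h B this count was 449, without 2 h B 397, and without either 4 h array 1320. At 4 h, 0 passed (0.00%; limma), the smallest adjusted p was 0.396, and 1526 had an unadjusted p under 0.05 (6.71%), 848 higher (3.73%) and 678 lower (2.98%). Without 4 h A that count was 2965 and without 4 h B 3626. Between the late times themselves, 4 h minus 2 h, 0 passed (0.00%; limma) and 957 had an unadjusted p under 0.05 (4.21%). Between 2 h and 1 h, 0 passed (0.00%; limma) and 551 had an unadjusted p under 0.05 (2.42%). A test of any difference among the 4 times gave 0 as well (0.00%; limma's moderated F test), with 916 at an unadjusted p under 0.05 (4.03%). That last count was 531 without 0.5 h B, 1803 without 4 h A and 2602 without 4 h B.

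Among the named genes, the lowest values at 2 h relative to the early arrays were those of the lectin cluster. AT1G52060 was at -2.52 and AT1G52050 at -2.26, and AT1G52070, absent on both 2 h arrays, was 6.80-fold lower. For the fold of a gene absent on a whole group, some signals were raised first. An absent signal dimmer than every present signal of its own array was raised to the dimmest of those. Such folds leave the spread between arrays aside and are not lower limits. Neither 2 h signal of AT1G52070 needed raising, so its fold equals the fitted difference of -2.77 (-2.997 to -2.54 with any 1 array left out). AT5G54370, a late embryogenesis abundant family member, had 83.2 and 99.0 at 2 h and 260 and 166 at 4 h, against 293 and 203 at 0.5 h and 732 and 984 at 1 h. It was at -2.15 at 2 h and -1.08 at 4 h, where 4 h A overlapped with the 0.5 h arrays. On the higher side at 2 h, AT4G18670, a leucine-rich repeat extensin of the cell wall, was called absent on all early arrays. It was 1.87-fold higher with its dim early signals raised, at 38.8 and 53.1. SDP1-LIKE, a triacylglycerol lipase, was likewise 1.35-fold higher, with 21.8 and 36.4 at 2 h. Both were called absent at 4 h at similar signals, 28.9 and 54.3 for AT4G18670 and 25.5 and 23.2 for SDP1-LIKE. Their fitted differences at 4 h were 1.03 and 0.85. Present calls on both 2 h arrays were required for naming here, so those calls are no finding. AT5G46230 was higher by 0.90 at 2 h and 0.48 at 4 h.

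At 4 h other genes came forward. PRH75, a nucleolar RNA helicase, had 792 and 896 at 2 h and 198 and 419 at 4 h, against 1166 and 1138 at 0.5 h and 1033 and 823 at 1 h. Its 4 h arrays were far below the rest, which overlapped, and it was at -1.78 at 4 h and -0.29 at 2 h (adjusted p = 0.527 at 4 h in limma). AT1G27090 had 281 and 287 at 2 h and 135 and 77.5 at 4 h, against 399 and 333 at 0.5 h and 377 and 253 at 1 h, and was at -1.57 at 4 h and -0.23 at 2 h. AT3G06460, absent on both 4 h arrays, was 8.86-fold lower there with the 4 h A signal raised in the same way. Its fitted difference of -3.54 at 4 h was -2.69 without 4 h A and -4.40 without 4 h B.

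Higher at 4 h, VPS60.1, of the ESCRT machinery that sorts membrane proteins for degradation, had 534 and 595 at 2 h and 1387 and 834 at 4 h, against 409 and 447 at 0.5 h and 433 and 612 at 1 h. It was at 1.17 at 4 h and 0.26 at 2 h. AT3G30560, absent on all early arrays, had 95.5 and 55.3 at 4 h and was 2.62-fold higher there with its dim early signals raised. AT1G02575 had 95.5 and 92.4 at 4 h, against 24.1 to 45.7 on the early arrays. The adjusted p for these 3 was 0.627 to 0.629 in limma.

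**Figure D4:**
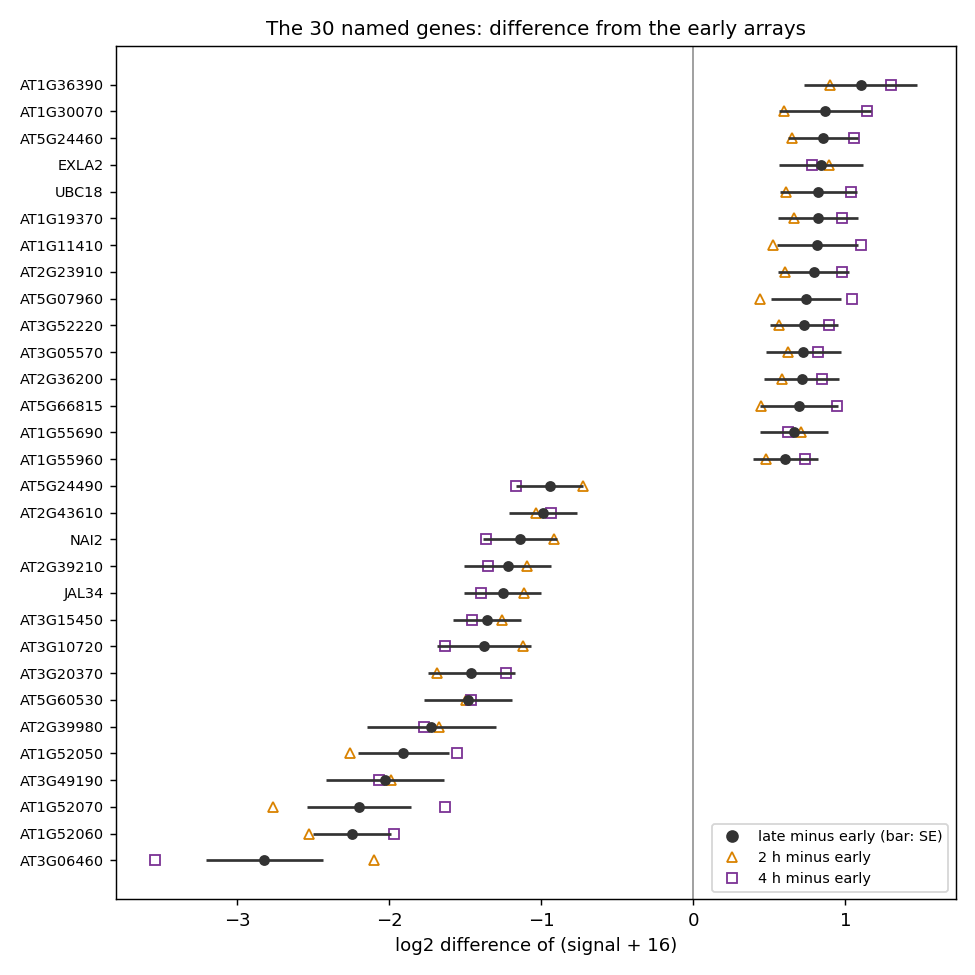
Log2 difference of (signal + 16) from the early arrays (horizontal axis) for the 30 named genes: filled circles with SE for late minus early, triangles for 2 h minus early, squares for 4 h minus early. The 15 lower genes run from -2.82 to -0.95 and the 15 higher genes from 0.61 to 1.10.

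Genes of brassinosteroid signalling and growth were covered only in part. The receptor BRL1 had a signal called present on 1 array, 4 h A at 48.6. BIM1, a bHLH partner of BES1, had 621 and 763 at 2 h and 458 and 693 at 4 h, against 546 and 443 at 0.5 h and 725 and 467 at 1 h, with overlap and a difference of 0.21. These are the 2 measured of 20 signalling genes, and none of the 15 genes of brassinosteroid synthesis and breakdown listed has a named probe set here. Of 14 growth genes known to be induced by BL, 3 were measured, 1 with a higher and 2 with a lower late mean, and none passed the threshold. EXO, a regulator of BL-promoted growth, had 569 and 400.4 at 2 h and 317 and 543 at 4 h, against 384 and 415 at 0.5 h and 567 and 291 at 1 h. ARL, a promoter of cell expansion, had 172 and 242 at 2 h and 429 and 204 at 4 h, against 330.2 and 308 at 0.5 h and 488 and 388 at 1 h. Both overlapped, with differences of 0.14 for EXO and -0.57 for ARL.

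EXPA8, an alpha-expansin, was the growth gene whose groups did not overlap. It had 196 and 106 at 2 h and 101 and 98.2 at 4 h, against 203 and 204 at 0.5 h and 358 and 216 at 1 h. The difference was -0.90, and -0.27 with the GAPDH ratio as a covariate. Of 24 expansins, 15 were measured, 5 higher and 10 lower, none past the threshold, with a median of -0.14. EXLA2 lay above its early arrays, and EXPA8 and EXPB2 below, against 1.37% and 1.67% of all probe sets, but EXPB2 was called absent on all 8. Of 22 XTH genes, which cut and rejoin xyloglucan in the wall, 9 were measured, 5 higher and 4 lower, with a median of 0.08. For every one of the 9 the late and early arrays overlapped. XTH18 had 1984 and 734 at 2 h and 1448 and 662 at 4 h, against 879 and 896 at 0.5 h and 1290 and 1117 at 1 h, its A arrays above its B arrays at both late times.

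Of 28 auxin response genes, 10 were measured, 3 higher and 7 lower, none past the threshold, with a median of -0.19. WES1, the GH3 enzyme that joins auxin to amino acids, was the single one whose groups did not overlap (1 of 10 below, against 1.67% of all probe sets). It had 313 and 187 at 2 h and 333 and 172 at 4 h, against 480 and 540 at 0.5 h and 434 and 426 at 1 h. Its difference of -0.91 was 0.13 once the GAPDH ratio entered the fit. HAT2, an auxin-induced HD-ZIP factor, differed by -0.04. The 2 measured of 21 cytokinin genes, ARR15 and RR16, were mostly called absent.

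Of 30 stress, wound and jasmonate genes, 5 were measured, 4 higher and 1 lower, none past the threshold, with a median of 0.21. CML38, a calcium sensor of wounding and hypoxia, had 481 and 576 at 2 h and 2662 and 497 at 4 h, against 436 and 431 at 0.5 h and 495 and 982 at 1 h. Its high value was on 4 h A alone, where STZ, a zinc finger factor of stress response, was also at its highest, 4318 against 1815 on 4 h B. BBM, a factor of the root stem cell niche, had 54 and 106 at 2 h and 16.6 and 95.5 at 4 h, against 112 and 84.9 at 0.5 h and 126 and 109 at 1 h.

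Families picked from gene symbols had medians between -0.34 and 0.24, against 0.00 for all probe sets, and no member passed the threshold. Of 51 UDP-glycosyltransferases (UGT), which attach sugars to hormones and other small molecules, 21 were higher and 30 lower, with a median of -0.09, and 2 had all late arrays below all early arrays (1.67% of all probe sets did). Of these 2, UGT73C1 was called absent on all 8 arrays, and UGT71B1 had 87.9 and 87.9 at 2 h and 92.0 and 91.5 at 4 h, against 151 and 144 at 0.5 h and 184 and 124 at 1 h. UGT74B1, of glucosinolate synthesis, overlapped, with 348 and 393 at 2 h and 727 and 370.2 at 4 h, against 1038 and 867 at 0.5 h and 523 and 753 at 1 h. The 6 class III peroxidases, which use hydrogen peroxide in the cell wall, had the lowest median, -0.34, with 2 higher and 4 lower and every one overlapping. The 7 WRKY transcription factors had a median of -0.18 (3 higher and 4 lower), the 12 glutathione transferases -0.05 and the 6 bHLH factors 0.07. The 29 probe sets with CYP symbols or synonyms had a median of 0.01. They are mostly cytochrome P450 genes but include cyclophilins, such as CYP59 and SQN, and SQN enters with 2 probe sets. The 69 organelle genes measured, all of the chloroplast genome, had a median of -0.03, and no mitochondrial gene was among them. Of 7 tubulins, 5 were higher with a median of 0.07, and of 7 histones, 6 were higher with a median of 0.24. Late and early arrays overlapped for every tubulin and histone.

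**Figure D5:**
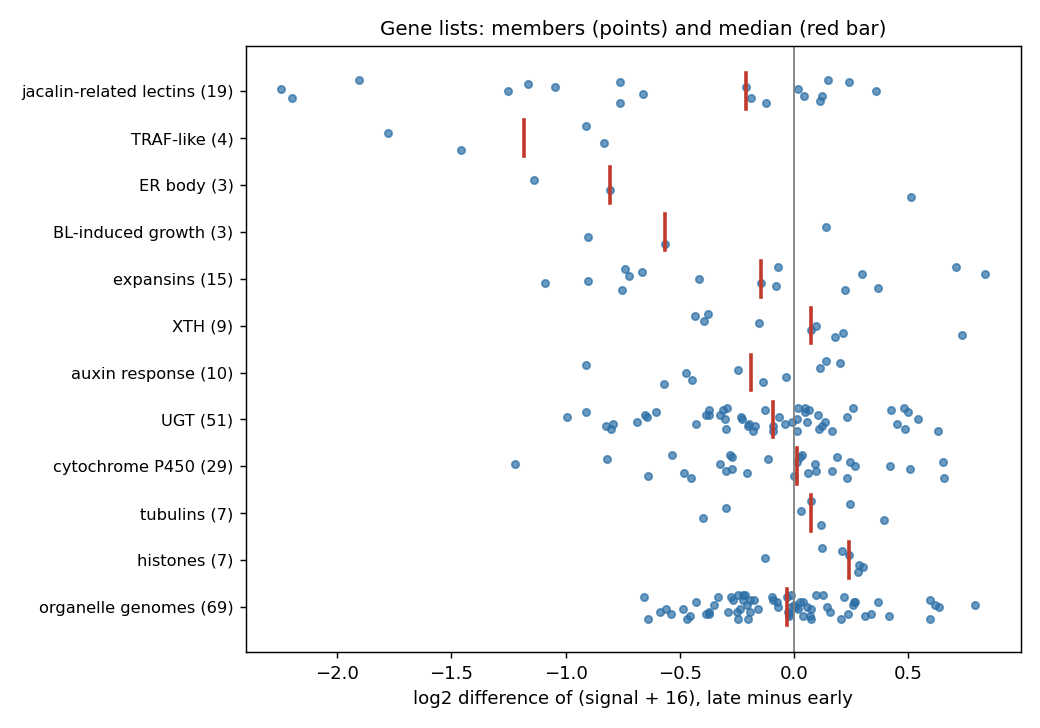
Log2 difference of (signal + 16), late minus early (horizontal axis), of each measured member (points) of 12 gene lists, with the number measured in brackets, the list's median (red bar) and the median of all probe sets (grey line). Jacalin-related lectins reach -2.25 although their median is -0.21, while the 69 organelle genes, all of the chloroplast genome, centre on -0.03. The row labelled cytochrome P450 holds all probe sets with CYP symbols or synonyms, cyclophilins among them.

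The 5 ATHB15 arrays, whose values the rule for the named genes did not use, give the same genes in another cell population. There BL at 2 h was compared with no BL, so the question differs, and 253 of 22746 probe sets passed (1.11%), 80 higher (0.352%) and 173 lower (0.761%). Of the 15 genes lower at late times in the stele, 5 rose with BL in ATHB15 cells and none fell. A higher mean with BL was found for 13 of the 15, against 10849 of all 22746 probe sets. JAL34 had 1755 and 1924 in ATHB15 BL, against 406, 164 and 336 in ATHB15 control (adjusted p = 0.0136 in limma). NAI2 had 380.4 and 354 in ATHB15 BL, against 29.7, 30.4 and 69.2 in ATHB15 control (adjusted p = 0.0081 in limma). AT3G20370 had 417 and 219 in ATHB15 BL, against 4.90, 32.2 and 34.0 in ATHB15 control (adjusted p = 0.0193 in limma). AT2G43610 and AT2G39210 also rose, with adjusted p-values of 0.0446 and 0.0492 in limma. The lectin cluster was dim in these cells, AT1G52060 with 100.2 and 73.4 in ATHB15 BL, against 17, 65.2 and 66.9 in ATHB15 control, and it did not pass (adjusted p = 0.476 in limma).

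Of the 15 genes higher at late times in the stele, 2 fell with BL in ATHB15 cells and none rose. EXLA2 had 18.7 and 4.90 in ATHB15 BL, against 146, 84.1 and 52.0 in ATHB15 control (adjusted p = 0.0329 in limma). UBC18 had 141 and 84.2 in ATHB15 BL, against 319, 290.2 and 333 in ATHB15 control (adjusted p = 0.0474 in limma). The median of the 15 lower genes was 0.83 and that of the 15 higher genes -0.42, against -0.03 for all probe sets. These calls lean on few arrays. Of the 5 rises, 2, 3 and 4 remained without ATHB15 control 1, 2 and 3, and none remained without ATHB15 BL 1 or without ATHB15 BL 2. Of the 2 falls, 1 remained without ATHB15 control 3 and none without any other ATHB15 array. The UBQ ratio was 9.07 and 5.99 in ATHB15 BL, against 4.85, 4.53 and 4.01 in ATHB15 control, and with it as a covariate none of the 7 passed and 1 probe set passed in all.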

How the data were processed

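The authors deposited signal intensity on a linear scale for each probe set, in 2 tables with identical signals for the 8 arrays (182480 of 182480). Per the file headers, 1 table adds the other kind of column used here, which calls each probe set present, marginal or absent on each array. The intensity had a mean of 250.0 on each array after the lowest and highest 2% of probe sets were left out. Which software made these values is not given here by any label or header. Of 22810 probe sets, 64 controls were left out. In the array annotation 13513 of the 22746 tested match 1 gene, 503 several and 8730 none, and the last are unnamed here.

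log2(signal + 16) was fitted in limma 3.58.1 (R 4.3.3), with a mean per time (4 times, 8 arrays) (degrees of freedom: 4 residual, 4.78 prior). Tests were two-sided and Benjamini-Hochberg adjustment ran over 22746 probe sets, with calls under 0.05. The ATHB15 comparison came from the same kind of fit over all 15 arrays, so the spread of the untreated pWOL:GFP arrays enters its p-values. The fit was tested on simulated data in which a probe set had the same spread at every time. That test does not cover the uneven spread seen here, a median SD of 0.196 at 0.5 h and 0.416 at 4 h.

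The named genes are, with no call made, the 15 higher and 15 lower (5 and 5 for single times) with the smallest p among probe sets of 1 gene whose groups do not overlap and that were called present on all arrays of the higher group. Gene lists (21), families (9) and 3 lists picked from the leading genes were described without a list test. The groups, genes and lists were all chosen with earlier results of these data known. Alternatives covered normalisation, offset, a detection filter, the model, the variance prior, a replicate block, RNA quality covariates and leaving out each array; the second GAPDH pair and the ATHB15 alternatives were added after seeing the data. The number of arrays limits the precision.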

Additional observations from a re-analysis of the deposited data

Results flagged for a closer look

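Among the late and early arrays, taken as groups of 4 that each pool 2 times, 4 values lay far from the other 3. Chance flags about 1 in 20 such groups, and 60 groups of gene signals and 8 of array measures were looked at, and 4 were found. AT3G20370 was at 357 on 4 h A, with the other late arrays at 177 to 184. AT5G66815 was at 678 on 4 h A, with the other late arrays at 343 to 383. AT2G23910 was at 93.5 on 1 h B, with the other early arrays at 115 to 119.8. The share of probe sets called present was 50.9% on 0.5 h B, with the other early arrays at 57.2% to 58.4%.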

How the results depend on the processing

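The count of 0 probe sets between late and early arrays became 2 (both lower) with an intensity-dependent prior, where AT1G52060 and a probe set without a listed gene had an adjusted p of 0.0475 (limma), and 1 (lower) with a slope on log2 time (adjusted p = 0.0430, limma). It was 0 in the other alternatives run and in each fit without 1 array, as were the counts for 2 h, for 4 h and for any difference among times. Whether the letters A and B pair the samples is not known. Across probe sets, correlations of replicate deviations between times were -0.19 to 0.20, which cannot decide it. A fit with the replicate block gave 0 calls and 1162 at an unadjusted p under 0.05. That count was 642 with only probe sets present on at least 2 arrays (fewer tested) and 1801 with the slope. Median centring turned the split of 492 higher and 615 lower into 651 and 489 (at 2 h, 194 and 484 into 333 and 334), and the actin covariate into 609 and 487. Values that changed sign with the GAPDH ratio as a covariate were UBC18 -0.019, AT1G36390 -0.58, AT2G39980 0.052, WES1 0.13, CYP71B37 0.44, UGT72E2 0.60, JAL33 0.30 and PYK10 0.72. With the second GAPDH pair they were AT1G36390 -0.24, UGT72E2 0.15, UGT71C2 0.29, JAL33 0.21 and PYK10 0.32, and with the actin ratio UGT74B1 0.13, UGT73C1 0.28 and AT5G28520 0.32. The cause was not tested. The named genes kept their direction without any 1 array. Folds of genes near background, absent on a whole group, use signals raised where needed and are not lower limits.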
